A study of Mus musculus with 4 samples.

Results

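The genes described here encode the enzymes of the tricarboxylic acid (TCA) cycle, the proteins that bring pyruvate into it, and the enzymes that bring in carbon from glutamate, aspartate and malate. They were taken by name from a list of 32 symbols chosen for their place in mitochondrial carbon metabolism. No measured value entered the rule, but earlier results of these data were known when the list was made. All 32 were among the 25239 gene symbols of the deposited count files, and all 32 passed the expression filter that left 13919 genes for testing. The data were 4 RNA-Seq libraries, described as being of CD4+ T cells isolated from mouse lung tumors. With 2 of them labelled WT and the other 2 CD4/ALK4-KO, they allow 1 comparison, between the genotypes. CD4/ALK4-KO mice carry loxP-flanked *Acvr1b*, the gene of the activin type I receptor ALK4, and a tamoxifen-inducible Cre recombinase under the mouse *Cd4* promoter (CD4CreERT2+/-/Acvr1bfl/fl), so that the deletion is directed to cells that express *Cd4* and other host cells keep the gene. Mice were C57BL/6 males of 8 to 10 weeks. Tamoxifen was given at 75 mg/kg in 5 daily doses, and 500000 LLC-OVA cells (Lewis lung carcinoma made to express ovalbumin) were then injected intravenously. Whether the WT mice also received tamoxifen is not given in the sources used here. Tumors were taken on days 18 to 22 according to the labels and on days 16 to 20 according to the methods.

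In the TCA cycle, acetyl-CoA is joined to oxaloacetate to form citrate, which is then oxidized stepwise back to oxaloacetate while NADH and reduced flavin are handed to the respiratory chain. Pyruvate enters as acetyl-CoA through the mitochondrial pyruvate carrier and the pyruvate dehydrogenase complex, or as oxaloacetate through pyruvate carboxylase. Glutamine enters as glutamate and then 2-oxoglutarate. Activated T cells draw on both routes, for ATP and for aspartate, citrate and NADPH used in growth, and mitochondrial function is known to be limited in T cells that have become exhausted in tumors.

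The total counts were 13869889 and 13943237 in the WT-labelled libraries and 11959487 and 11823908 in the CD4/ALK4-KO-labelled libraries. The targeted gene *Acvr1b* had 426 and 342 counts in the WT-labelled libraries and 322 and 445 in the CD4/ALK4-KO-labelled libraries. At 0.16 ± 0.24 on the log2 scale (standard error, adjusted p = 0.66) it did not separate the labels, and every direction below is between libraries as labelled. Fold changes are of CD4/ALK4-KO over WT on the log2 scale, from the quasi-likelihood test of edgeR with Benjamini-Hochberg adjustment over all 13919 genes, and a gene is said to have risen or fallen only at an adjusted p under 0.05. Levels are in CPM, the counts scaled to a common library size after TMM adjustment, with n = 2 libraries per genotype. The libraries are described as biological replicates, without the animals behind each being named, so the p-values rest on the spread between these libraries. That spread was estimated with information shared across genes, and not from the values of a single gene alone.

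Of the 32 genes, 7 fell and 1 rose. The genes that fell were *Dld*, *Sdhc*, *Idh1*, *Fh1*, *Me1*, *Suclg2* and *Sdhd*, and the gene that rose was *Ogdh*. Among all genes tested, 15.4% fell and 17.4% rose, against 21.9% and 3.12% of the 32. The share that fell was thus near the background, and the share that rose was below it. Both CD4/ALK4-KO-labelled libraries lay below both WT-labelled libraries for 21 of the 32 genes (65.6%, against 34.0% of all genes tested) and above them for 3 (9.38%, against 32.7%), while for 8 genes the groups overlapped. The fold change was below 0 for 26 genes. Its median over the 32 was -0.28, and over all genes tested it was -0.01. The summed level of the 32 genes was 5018 and 5162 CPM in the WT-labelled libraries and 4250 and 3913 CPM in the CD4/ALK4-KO-labelled libraries, or 5090 ± 102 against 4082 ± 238 (mean ± SD), a log2 ratio of -0.32. Most of the 24 genes that did not pass the test thus lay slightly below 0, and none of them had an unadjusted p under 0.05. Among the 8 genes that passed, the smallest change was 0.62 on the log2 scale.

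**Figure D1:**
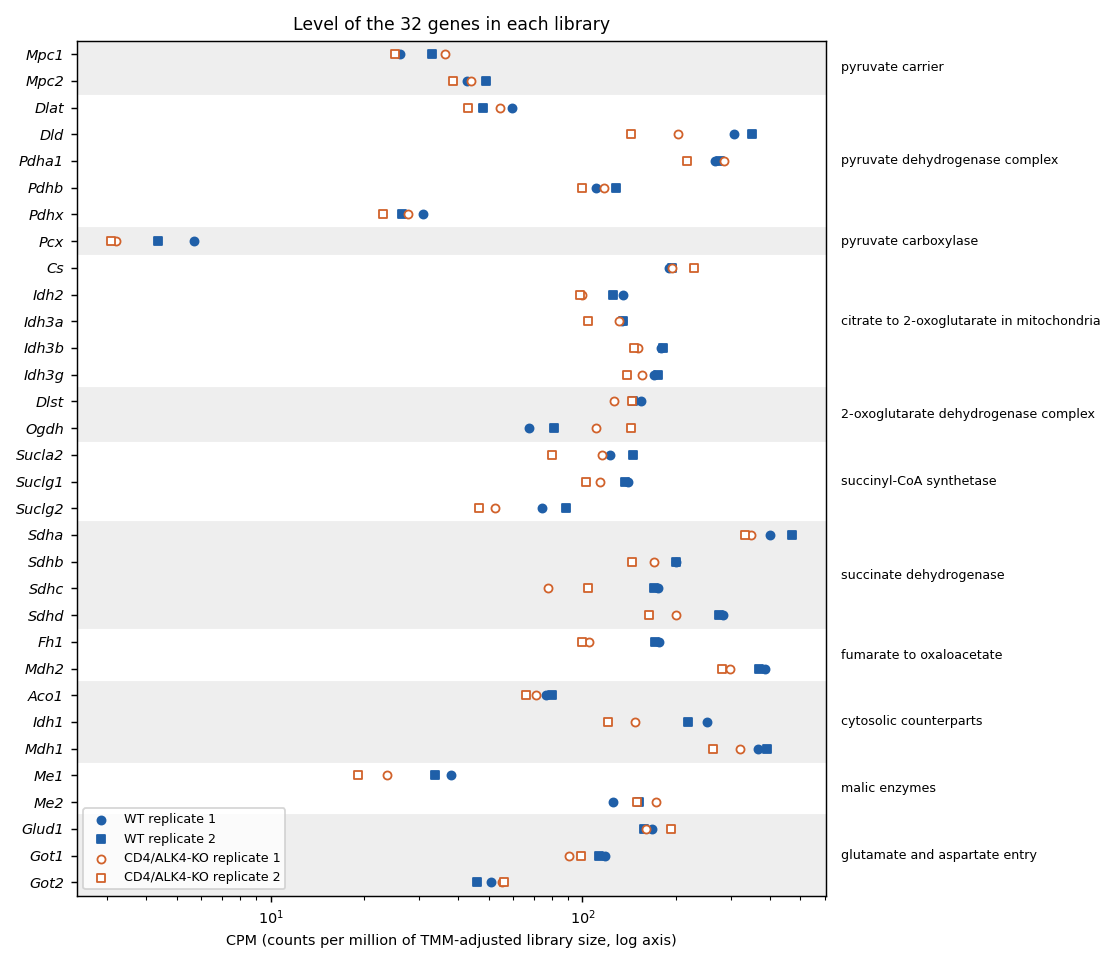
Level of each of the 32 genes in each of the 4 libraries, in CPM on a log axis, with genes grouped by role. Filled blue symbols are WT-labelled and open orange symbols CD4/ALK4-KO-labelled libraries. The open symbols lie to the left of both filled ones for 21 genes (65.6%, against 34.0% of all genes tested), among them all 4 genes of succinate dehydrogenase. They lie to the right for *Cs*, *Ogdh* and *Got2*.

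**Figure D2:**
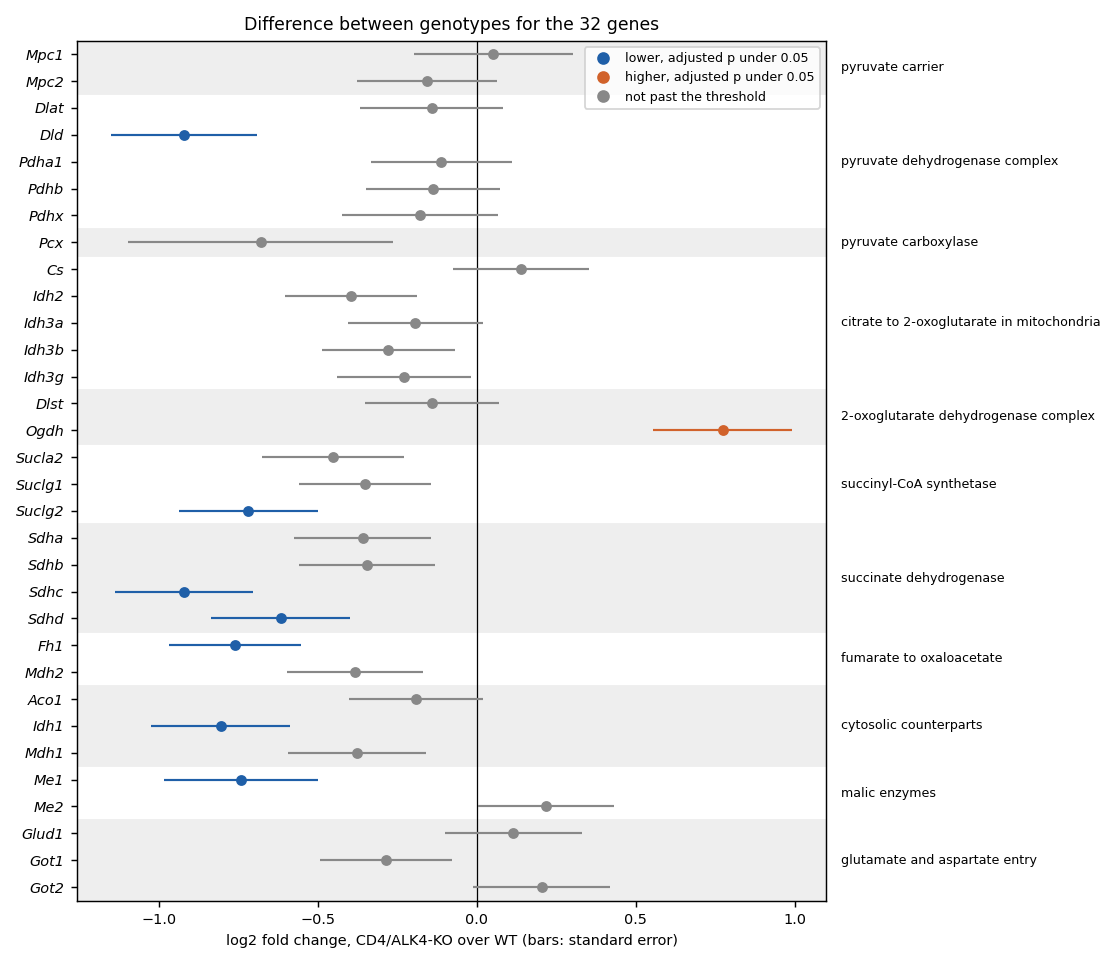
Log2 fold change of CD4/ALK4-KO over WT for the 32 genes, grouped by role. Bars are the standard error of the edgeR fit. The 7 genes that fell (blue, 21.9%, against 15.4% of all genes tested) lie between -0.92 and -0.62. *Ogdh* (orange) at 0.77 is the only gene that rose (3.12%, against 17.4%).

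Promoter stretches are printed here for *Ogdh*, *Me1* and *Dld*, and not for the other genes that fell. RefSeq promoters, from 250 bases before to 50 bases after a transcription start on GRCm38.p6, were matched for 29 of the 32 genes (38 promoters), and not for *Idh3a*, *Me2* and *Sdhc*. The words searched on both strands were CACGTG (E-box), TGACNNNGC (core of the antioxidant response element), CGCATGCG (core of the NRF1 site) and AAGGTCA (a site of the ERR family). Read on the other strand, the ERR site begins with the same 4 letters as the antioxidant response element core, so these words can overlap. *Ogdh*, the gene that rose, held the E-box, the NRF1 core and the ERR site in some but not all promoters of its 6 annotated starts. No promoter of *Ogdh* held both the NRF1 core and the ERR site. A gene with more starts has more windows in which a word can occur, and the shares of genes below are not adjusted for this. Across all genes with a promoter, the E-box was present in 8.09%, the NRF1 core in 2.07%, the ERR site in 5.38% and the antioxidant response element core in 14.0%. Of the 29 genes, *Ogdh* and *Pcx* held the E-box, and *Ogdh* alone held the NRF1 core. *Got1*, *Ogdh* and *Sdhd* held the ERR site, of which *Sdhd* was among the genes that fell. The antioxidant response element core was present in 7 of the 29 (24.1%), namely *Dlst*, *Idh3g*, *Mdh1*, *Me1*, *Mpc1*, *Pdhb* and *Sucla2*, of which *Me1* was among the genes that fell. The following stretches are printed from RefSeq, 5′ to 3′ along the gene, with the matching word in capitals. The first 2 lie at chr11:6292514-6292557 and chr11:6292405-6292434 (plus strand, upstream of the *Ogdh* start at 6292558), the next at chr9:86695902-86695930 (minus strand, across the *Me1* start), and the last at chr12:31351472-31351571 (minus strand, the bases before the *Dld* start), in which none of the words was found.
*Ogdh*, NRF1 core: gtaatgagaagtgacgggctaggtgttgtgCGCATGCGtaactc
*Ogdh*, E-box: ggcaagaatcctCACGTGgataccatgtaa
*Me1*, antioxidant response element core: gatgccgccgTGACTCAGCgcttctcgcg
*Dld*, upstream bases: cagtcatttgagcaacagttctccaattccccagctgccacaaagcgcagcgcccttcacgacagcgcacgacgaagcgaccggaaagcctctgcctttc
Such a match describes the letters in the window, and binding to these sites was not measured in these libraries.

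Of 8 genes of pyruvate entry 1 fell, where 15.4% of all genes tested fell, so this count is not a result about pyruvate entry. *Mpc1* and *Mpc2*, which together form the carrier for pyruvate in the inner mitochondrial membrane, had log2 fold changes of 0.05 and -0.16, at 25.1 to 36.1 and 38.5 to 49.2 CPM. The groups overlapped for both. In the pyruvate dehydrogenase complex, *Pdha1* and *Pdhb* encode the E1 subunits that decarboxylate pyruvate, *Dlat* the E2 core that carries the acetyl group on lipoate, *Pdhx* the protein that binds E3 to that core, and *Dld* the E3 dihydrolipoamide dehydrogenase that reoxidizes the lipoate. *Pdha1* had 3635 and 3732 counts in the WT-labelled libraries and 3377 and 2681 in the CD4/ALK4-KO-labelled libraries, a log2 fold change of -0.11 (standard error 0.22). The fold changes of *Pdhb*, *Dlat* and *Pdhx* were -0.14, -0.14 and -0.18, at 99.9 to 128, 43.0 to 59.3 and 22.9 to 30.8 CPM. For these 4 genes the groups overlapped, in contrast to *Dld*.

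*Dld*, on chromosome 12 from 31331277 to 31351453 (GRCm38, minus strand), had 4199 and 4713 counts in the WT-labelled libraries and 2408 and 1771 in the CD4/ALK4-KO-labelled libraries. The higher of the latter was well below the lower of the former. In CPM the level was 327 ± 29.7 against 173 ± 41.6, so it fell by 0.92 on the log2 scale (standard error 0.23, adjusted p = 0.0037 in edgeR). Without the second WT-labelled library the value was -0.83 with an adjusted p of 0.079. Relative to *Dlat* in the same library, *Dld* had 5.17 and 7.24 counts per count in the WT-labelled libraries and 3.72 and 3.34 in the CD4/ALK4-KO-labelled libraries, a ratio chosen after its values were seen and therefore not tested. *Dld* is shared between the pyruvate and 2-oxoglutarate dehydrogenase complexes and is also part of the branched-chain oxo acid dehydrogenase complex and the glycine cleavage system.

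*Pcx*, pyruvate carboxylase, which makes oxaloacetate from pyruvate, was the member with the lowest level. Its counts were 78 and 59 in the WT-labelled libraries and 38 in each CD4/ALK4-KO-labelled library. The log2 fold change of -0.68 had a standard error of 0.42 and did not pass the test (adjusted p = 0.22), at a depth where that error was larger than for the other 31 genes.

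From citrate to 2-oxoglutarate in the mitochondria, none of the 5 genes passed the test. *Cs*, citrate synthase, which forms citrate from acetyl-CoA and oxaloacetate, lay at 190 to 228 CPM, with a log2 fold change of 0.14. Its 2 CD4/ALK4-KO-labelled libraries were above both WT-labelled ones, by a margin of 193.8 against 194.3 CPM for the closest pair. The 3 subunits of the NAD-dependent isocitrate dehydrogenase had fold changes of -0.19 (*Idh3a*, 104 to 135 CPM), -0.28 (*Idh3b*, 146 to 182 CPM) and -0.23 (*Idh3g*, 139 to 174 CPM). *Idh2*, the NADP-dependent mitochondrial enzyme, was at -0.40 (98.5 to 135 CPM, adjusted p = 0.15). The 4 isocitrate dehydrogenase genes thus lay below 0 by amounts of about 1 to 2 standard errors. Their groups did not overlap, a separation in this direction seen for 34.0% of all genes tested. The summed level of the 5 genes was 806 and 811 CPM in the WT-labelled libraries and 730 and 715 CPM in the others.

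The 2-oxoglutarate dehydrogenase complex turns 2-oxoglutarate into succinyl-CoA, and of its components the E1 gene rose, the E3 gene fell and the E2 gene did not pass the test. *Ogdh*, the E1 that decarboxylates 2-oxoglutarate (chromosome 11, 6291633 to 6356642, plus strand), had 921 and 1097 counts in the WT-labelled libraries and 1311 and 1767 in the CD4/ALK4-KO-labelled libraries, although the latter had the smaller totals. Its level was 74.2 ± 9.82 against 127 ± 23.3 CPM, so it rose 1.71-fold, by 0.77 on the log2 scale (standard error 0.22, adjusted p = 0.0092 in edgeR). Without the first WT-labelled library the value was 0.64 (adjusted p = 0.24), and without the second it was 0.91 (adjusted p = 0.058). *Dlst*, the E2 that carries the succinyl group, had a log2 fold change of -0.14 (127 to 154 CPM), and its groups did not overlap, by a narrow margin of 144.6 against 144.7 CPM. The E3 *Dld* fell, as given above.

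Ratios of these genes within a library do not depend on how libraries are scaled. *Dld* had 4.56 and 4.30 counts per count of *Ogdh* in the WT-labelled libraries, and 1.84 and 1.00 in the CD4/ALK4-KO-labelled libraries. *Dlst* had 2.30 and 1.79 against 1.15 and 1.01 counts per count of *Ogdh*. In both ratios the 2 groups were apart, by -1.71 and -0.91 on the log2 scale, and both were chosen after the values were seen and not tested. Per kilobase of annotated exon, the level of *Ogdh* was 16.7 CPM in WT-labelled and 28.5 CPM in CD4/ALK4-KO-labelled libraries, and that of *Dld* 129 and 68.0 CPM, so *Dld* remained the higher of the pair in both.

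Succinyl-CoA synthetase, which makes ATP or GTP as it forms succinate, pairs a common subunit with 1 of 2 nucleotide-specific subunits. *Suclg1*, the common subunit, was at -0.35 on the log2 scale (103 to 140 CPM), and *Sucla2*, the ADP-specific subunit, at -0.45 (79.9 to 145 CPM, adjusted p = 0.13). *Suclg2*, the GDP-specific subunit, had 1017 and 1202 counts in the WT-labelled libraries and 625 and 575 in the CD4/ALK4-KO-labelled libraries. It fell by 0.72 (standard error 0.22, adjusted p = 0.014). All 3 genes were lower in both CD4/ALK4-KO-labelled libraries than in both WT-labelled ones, a separation seen for 34.0% of all genes tested. The call of *Suclg2* was lost without the first WT-labelled library (-0.85, adjusted p = 0.074) and without the second (-0.59, adjusted p = 0.24), while *Sucla2* passed without the first CD4/ALK4-KO-labelled library (-0.71, adjusted p = 0.0040). A share of 15.97% of the 75-base windows of the longest protein-coding *Suclg2* transcript also occurs in transcripts of Gm15163. Part of the reads of *Suclg2* could thus have been split or lost in counting.

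Succinate dehydrogenase oxidizes succinate to fumarate and is also complex II of the respiratory chain. Its 4 genes were all lower in both CD4/ALK4-KO-labelled libraries, a separation seen for 34.0% of all genes tested. The 2 that passed the test, which 15.4% of all genes tested did in this direction, encode the membrane anchor that holds the ubiquinone site. *Sdhc* (chromosome 1, 171127165 to 171150603) had 2386 and 2300 counts in the WT-labelled libraries and 925 and 1284 in the CD4/ALK4-KO-labelled libraries. It fell from 172 ± 2.88 to 90.9 ± 18.6 CPM, by 0.92 on the log2 scale (standard error 0.22, adjusted p = 0.0025), the smallest adjusted p among the 32 genes. *Sdhc* was also the only one of the 8 to pass under each of the 13 alternatives, with a largest adjusted p of 0.043. *Sdhd* had 3876 and 3717 counts in the WT-labelled libraries and 2381 and 2018 in the CD4/ALK4-KO-labelled libraries. It fell by 0.62 (standard error 0.22, adjusted p = 0.033), a call lost when the first (-0.60, adjusted p = 0.27) or the second WT-labelled library (-0.65, adjusted p = 0.20) was left out.

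*Sdha*, the flavoprotein that binds succinate, was the member with the highest CPM. It had 5470 and 6360 counts in the WT-labelled libraries and 4118 and 4092 in the CD4/ALK4-KO-labelled libraries, or -0.36 on the log2 scale (standard error 0.21, adjusted p = 0.21). The iron-sulfur subunit gene *Sdhb* was at -0.35 (144 to 200 CPM, adjusted p = 0.23). The summed level of the 4 genes was 1085 ± 42.4 CPM in WT-labelled and 768 ± 35.2 CPM in CD4/ALK4-KO-labelled libraries. The ratio of *Sdhb* to *Sdha* overlapped between the groups, at 0.498 and 0.425 against 0.490 and 0.436. *Sdhc* per *Sdha* was 0.436 and 0.362 in the WT-labelled libraries and 0.225 and 0.314 in the others. *Sdhd* per *Sdha* was 0.709 and 0.584 against 0.578 and 0.493. The last 2 ratios were chosen after their values were seen and not tested, and the distance between the nearest libraries of the 2 groups was small for *Sdhd*.

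In the last steps of the cycle, *Fh1*, the fumarase that hydrates fumarate to malate, had 2409 and 2312 counts in the WT-labelled libraries and 1251 and 1229 in the CD4/ALK4-KO-labelled libraries. Replicates lay close to each other in both groups, at 173 ± 3.44 and 102 ± 3.93 CPM. *Fh1* fell by 0.76 on the log2 scale (standard error 0.21, adjusted p = 0.0074). With 1 library left out in turn the value stayed between -0.79 and -0.73, but the call was lost without the first (adjusted p = 0.12) or the second (adjusted p = 0.083) WT-labelled library. *Mdh2*, the mitochondrial malate dehydrogenase that regenerates oxaloacetate, had 5270 and 4962 counts in the WT-labelled libraries and 3533 and 3449 in the others. The difference of -0.38 on the log2 scale (standard error 0.21) did not pass, at an adjusted p of 0.18. The 2 groups did not overlap for either gene, a separation in this direction seen for 34.0% of all genes tested. *Fh1* per *Mdh2* was 0.457 and 0.466 in the WT-labelled libraries and 0.354 and 0.356 in the CD4/ALK4-KO-labelled libraries, again a ratio chosen after the fact.

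The cytosol holds its own forms of several of these enzymes, which make NADPH and move reducing equivalents. *Idh1*, the cytosolic NADP-dependent isocitrate dehydrogenase (chromosome 1, 65158616 to 65186500), had 3444 and 2944 counts in the WT-labelled libraries and 1752 and 1494 in the CD4/ALK4-KO-labelled libraries. It fell by 0.81 on the log2 scale (standard error 0.22, adjusted p = 0.0069), and without the first WT-labelled library the value was -0.71 (adjusted p = 0.16). *Me1*, the cytosolic malic enzyme that makes pyruvate and NADPH from malate, had 519 and 454 counts in the WT-labelled libraries and 282 and 235 in the CD4/ALK4-KO-labelled libraries. It fell by 0.74 (standard error 0.24, adjusted p = 0.022). For both genes the 2 groups did not overlap, a separation in this direction seen for 34.0% of all genes tested. The call of *Me1* was the least stable of the 8 on leaving out libraries. It was lost without the first (-0.66, adjusted p = 0.26) and the second WT-labelled library (-0.83, adjusted p = 0.10) and without the second CD4/ALK4-KO-labelled library (-0.60, adjusted p = 0.061). In the longest protein-coding transcript of *Me1*, 23.1% of 75-base windows recur in transcripts of other genes, mainly Gm7049 and Gm48795. The counts of *Me1* are thus less certain than those of *Idh1*, whose longest protein-coding transcript shares none.

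*Mdh1*, the cytosolic malate dehydrogenase of the malate-aspartate shuttle, had 5008 and 5281 counts in the WT-labelled libraries and 3799 and 3248 in the others, or -0.38 on the log2 scale (standard error 0.22, adjusted p = 0.19). It passed without the first CD4/ALK4-KO-labelled library (-0.49, adjusted p = 0.030). *Aco1*, the cytosolic aconitase that also acts as an iron-regulatory protein, was at -0.19 (66.1 to 79.8 CPM). The mitochondrial malic enzyme *Me2* was at 0.22 (125 to 172 CPM), with overlap between the groups.

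The 3 genes through which glutamate and aspartate exchange carbon with the cycle did not pass the test, and their fold changes lay on both sides of 0. *Glud1*, glutamate dehydrogenase, was at 0.11 (157 to 192 CPM), *Got1*, the cytosolic aspartate aminotransferase, at -0.28 (90.5 to 118 CPM), and *Got2*, its mitochondrial counterpart, at 0.20 (45.8 to 56.2 CPM). Their summed level was 326 CPM in both groups (SD 14.1 in WT-labelled and 29.5 in CD4/ALK4-KO-labelled libraries), a log2 ratio of 0.00040. Glutamate and aspartate entry was thus the role with the smallest difference in summed level, and fumarate to oxaloacetate, succinate dehydrogenase and the cytosolic counterparts were among those with larger ones, at log2 ratios of -0.49, -0.50 and -0.48.

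The 9 ratios of partner genes set down for comparison within each library were those of mitochondrial to cytosolic isoforms and of subunits of 1 enzyme. They too were listed with earlier results of these data known. With 2 libraries against 2, an exact two-sided permutation test cannot give a p below 0.3333, so no ratio could pass. In 4 ratios both CD4/ALK4-KO-labelled libraries lay above both WT-labelled ones (p = 0.3333 in the exact test, 0.75 after Benjamini-Hochberg adjustment over the 9). For single genes, such separation in 1 given direction was seen for 34.0% (below) and 32.7% (above) of all genes tested, so 4 of 9 is not a result about these pairs. *Me2* had 3.30 and 4.51 counts per count of *Me1* in the WT-labelled libraries and 7.25 and 7.86 in the CD4/ALK4-KO-labelled libraries. *Got2* per *Got1* was 0.431 and 0.406 against 0.608 and 0.568. *Idh2* per *Idh1* was 0.537 and 0.577 against 0.676 and 0.814. In these 3 pairs the mitochondrial form was higher relative to the cytosolic one in the CD4/ALK4-KO-labelled libraries, by 0.97, 0.49 and 0.41 on the log2 scale.

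The remaining mitochondrial to cytosolic pair, *Mdh2* to *Mdh1*, overlapped, at 1.05 and 0.940 against 0.930 and 1.06. *Sucla2* per *Suclg2* was 1.65 and 1.63 against 2.20 and 1.72, a separation that rested on a small gap for 1 library. The subunit ratios *Mpc2* to *Mpc1*, *Pdhb* to *Pdha1*, *Idh3g* to *Idh3a* and *Sdhb* to *Sdha* overlapped, with log2 differences of -0.20, -0.01, -0.03 and 0.01 and SDs within groups of 0.18, 0.11, 0.09 and 0.14. Counts of *Got2* and *Me1* are among those that share sequence with other genes, at 35.2% and 23.1% of windows, so the ratios that hold them are less certain.

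**Figure D3:**
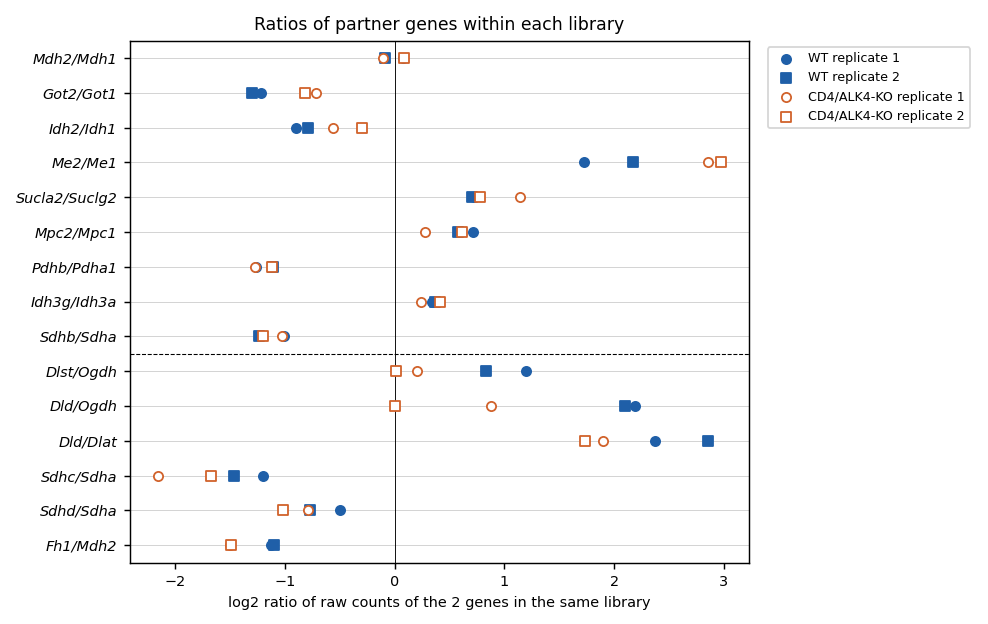
Log2 ratio of the raw counts of 2 genes in the same library, for 9 ratios that were set down for comparison (above the dashed line) and 6 chosen after the values were seen (below it). Filled blue symbols are WT-labelled and open orange symbols CD4/ALK4-KO-labelled libraries. The open symbols lie to the right for *Got2*/*Got1*, *Idh2*/*Idh1*, *Me2*/*Me1* and *Sucla2*/*Suclg2* and to the left for the 6 below the line.

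Compared per kilobase of annotated exon, which allows levels of different genes to be set side by side, the mean over the 4 libraries ran from 0.961 CPM for *Pcx* to 228 CPM for *Mdh2*. After *Mdh2* came *Sdhd* at 187, *Mdh1* at 158, *Sdhb* at 156 and *Sdha* at 133 CPM per kilobase. *Mdh1* and *Sdhb*, neighbours in that order, differed by less than the SD of *Mdh1* within either genotype (8.32 in WT-labelled and 18.7 in CD4/ALK4-KO-labelled libraries). *Pdhx* and *Me1*, at 6.85 and 7.91, were the lowest after *Pcx*. Shared windows were counted in the longest protein-coding transcript of each gene, against annotated transcripts of other genes. Of the 32 genes, 24 shared no 75-base window there and 7 shared over 5%, the most in *Got2*. The exons of 6 genes (*Idh3b*, *Mdh1*, *Pdha1*, *Me1*, *Got2* and *Mpc1*) overlap a gene on the other strand. The strand option used in counting is not given in the sources used here, so reads of these genes and of their antisense partners may not have been told apart.

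The genes around the cycle were described from a list of 40 that was ordered by role, of which 39 symbols were in the files and 37 were tested. Of these, 8 fell and 5 rose, against backgrounds of 15.4% and 17.4% of all genes tested, and the median log2 fold change was -0.11. *Ldha*, which turns pyruvate into lactate, had the highest level of the list, at 2369 and 2257 CPM in the WT-labelled libraries and 1282 and 1174 CPM in the CD4/ALK4-KO-labelled libraries, and fell by 0.91. *Pdp2*, a phosphatase that activates pyruvate dehydrogenase, rose by 0.83 on the log2 scale at a low level (7.10 to 14.0 CPM). *Pdk1* and *Pdk3*, kinases that inhibit the complex, were at 0.39 and -0.11 and did not pass. *Ldhb* was at 0.14.

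On the glutamine side, the transporter gene *Slc38a1* rose by 0.84, while *Slc38a2* and *Slc1a5*, which also carry glutamine, were at 0.30 and 0.22 and did not pass. *Gls2*, a glutaminase at 0.0840 to 2.51 CPM, fell by 1.99 at a level where few reads were counted. *Glul*, glutamine synthetase, was at 0.02. *Gpt2*, the mitochondrial alanine aminotransferase, fell by 1.64 from 18.2 and 12.9 CPM to 2.86 and 7.13 CPM. *Pck2*, mitochondrial phosphoenolpyruvate carboxykinase, fell by 0.72.

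In the use and transport of citrate, *Acly*, which cleaves cytosolic citrate to acetyl-CoA, rose by 0.79 (151 and 143 CPM in the WT-labelled and 243 and 264 CPM in the CD4/ALK4-KO-labelled libraries), whereas *Slc25a1*, the mitochondrial citrate carrier, fell by 0.77. *Acod1*, which makes itaconate and is known from activated macrophages, rose by 0.65. Of the aspartate-glutamate carriers, *Slc25a13* fell by 1.07 and *Slc25a12* was at 0.41 without passing (adjusted p = 0.14). *Slc25a11*, the 2-oxoglutarate carrier, was at 0.12, and *Sdhaf2*, a succinate dehydrogenase assembly factor, at -0.12. *Ogdhl*, a homologue of *Ogdh*, fell by 0.89. *D2hgdh*, which returns D-2-hydroxyglutarate to 2-oxoglutarate, rose by 0.81. On leaving out a library the number of these genes called changed, and so did the number of all genes called. These changes were not separated, so they are no result about these genes.

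The labelled cell type was compared with marker genes, since libraries of isolated cells can hold RNA of other cells. All 14 T cell genes were present, and all 14 were higher in the CD4/ALK4-KO-labelled libraries, with a summed level of 465 to 503 CPM in WT-labelled and 2598 to 2751 CPM in CD4/ALK4-KO-labelled libraries. The 6 B cell genes were also higher (52.6 to 62.0 against 174 to 338 CPM). Fibroblast genes, with *Col3a1* and *Dcn* as the highest, summed to 6712 to 7307 CPM in WT-labelled and 3965 to 4773 CPM in CD4/ALK4-KO-labelled libraries, and 4 of 7 fell. Of 8 epithelial genes 5 fell and 2 rose (889 to 899 against 436 to 583 CPM). The 2 that rose were *Epcam* and *Cdh1*, by 2.31 and 1.77 on the log2 scale, at 0.803 to 6.30 and 4.81 to 16.9 CPM. Of 6 alveolar macrophage genes 3 fell (776 to 921 against 443 to 555 CPM). Of 10 macrophage genes 1 rose (2234 to 2714 against 2188 to 2381 CPM), of 6 neutrophil genes 2 rose (897 to 1379 against 917 to 1389 CPM), and of 6 endothelial genes 1 rose and 1 fell (54.6 to 71.2 against 124 to 140 CPM). The endothelial sum was set by *Pecam1*, which other cell types also express (22.5 and 42.7 against 106 and 108 CPM), while the median log2 fold change of that list was -0.33. Of 8 proliferation genes 4 fell (1604 to 1679 against 949 to 1171 CPM), while *Mki67* was at 0.39 on the log2 scale and did not pass. No marker was at 0 in any library. In each library the fibroblast sum was above the T cell sum, so the levels of the 32 genes cannot be read as those of T cells alone. The summed level of the 32 metabolic genes was thus lower in the libraries with lower fibroblast, epithelial and proliferation sums and higher T and B cell sums. Single epithelial and proliferation genes did not all follow their sums. The part of these differences in the result was not tested. In such bulk libraries, fewer cells of a type and less RNA per cell cannot be told apart.

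**Figure D4:**
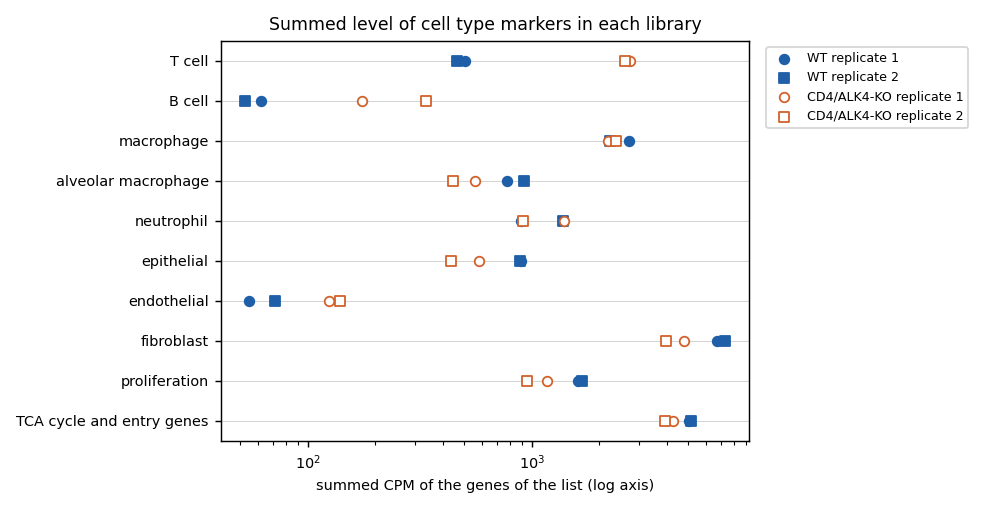
Summed CPM of the genes of each marker list, and of the 32 TCA cycle and entry genes, in each library on a log axis. Filled blue symbols are WT-labelled and open orange symbols CD4/ALK4-KO-labelled libraries. The T cell and B cell sums lie higher in the CD4/ALK4-KO-labelled libraries. The fibroblast, epithelial, alveolar macrophage and proliferation sums lie lower, although *Epcam* and *Cdh1* of the epithelial list rose. The macrophage and neutrophil sums overlap.

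The choice of scale matters here. When libraries were scaled to 4 T cell receptor complex genes (*Cd3d*, *Cd3e*, *Cd3g* and *Cd247*) in place of TMM, the median of all genes shifted by -2.18 on the log2 scale, and 92.0% of all genes tested fell. On that scale all 32 genes fell, *Ogdh* included, with a median of -2.47 against -2.19 over all genes, from -3.12 for *Dld* to -1.41 for *Ogdh*. Such a scaling moves every gene by about the same amount, so the order of the 32 genes on it is no separate result, and the direction of *Ogdh* depends on the scale chosen.

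**Figure D5:**
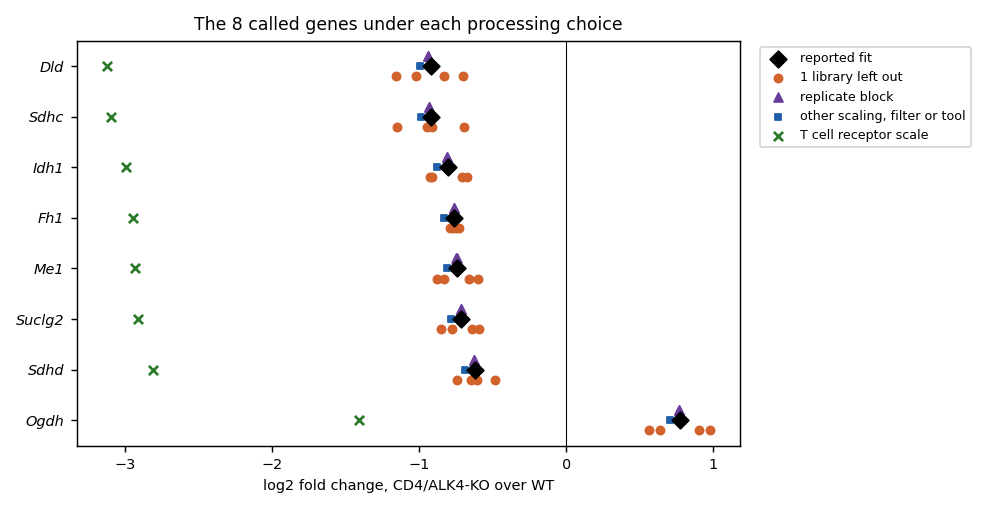
Log2 fold change of the 8 genes that passed the test, under each processing alternative. The black diamond is the reported value, circles leave out 1 library each, triangles add a replicate block, squares use another scaling, filter or tool, and crosses scale to T cell receptor complex genes. Apart from the crosses, *Ogdh* lies between 0.57 and 0.98 and the other 7 genes below 0.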

How the data were processed

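According to the study, the 4 libraries were prepared from RNA of CD4+ T cells of lung tumors (TruSeq RNA v2, 75 bp single-end reads). After FastQC, the authors used HISAT2 for alignment to mm10 and htseq-count (intersection non empty) for counting. They deposited the raw counts, 1 value per symbol and library, before their own normalization with DESeq2 size factors. Versions, annotation and strand option are not given in the sources used here.

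From these counts, edgeR 4.0.16 in R 4.3.3 was used with filterByExpr and TMM. Genotype was the single term of the quasi-likelihood fit (robust), and p-values were adjusted over all genes tested. The standard error of a fold change is its size on the log2 scale over the square root of F. Replicates differed by more than sampling noise (chi-square per degree of freedom 16.0 for WT and 28.7 for CD4/ALK4-KO). GENCODE M21 (GRCm38) matched 24374 of 25239 symbols. The script was tested on simulated data. Alternatives were DESeq2 1.42.0 (size factors, Wald test), other scalings, filters and tests, replicate blocks, and each library left out.

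The 32 genes, the other lists and the ratios were chosen with earlier results of these data known. Every member is named, with counts for those past the threshold and the 6 highest in mean CPM. Of surrounding genes, those past the threshold or over 50 CPM are named, and of marker lists those with the highest counts. For 3 surrounding genes under this rule, values are not reported here.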

Additional observations from a re-analysis of the deposited data

How the results depend on the processing

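Of 384 values of single genes under the 12 alternatives other than T cell receptor scaling, 377 kept their direction, 17 lost and 5 gained the call, and 7 turned, all of genes that had not passed and by at most 0.20 on the log2 scale from 0: *Mpc1* with upper quartile scaling (-0.018), and on leaving out 1 library *Mpc1* (-0.20 to 0.28), *Dlat* (-0.29 to 0.011), *Pdha1* (-0.29 to 0.063) and *Glud1* (-0.028 to 0.27). The T cell receptor scale turned *Cs* (-2.04), *Ogdh* (-1.41), *Me2* (-1.98), *Got2* (-1.98), *Glud1* (-2.06) and *Mpc1* (-2.15). It gave 32 members that fell and 0 that rose, a median of -2.47, a log2 ratio of summed levels of -2.51, and 36 surrounding genes that fell and 0 that rose, with 12803 of all genes that fell and 48 that rose. Upper quartile scaling left 2 surrounding genes that rose and a summed log2 ratio of -0.39.

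With 1 library left out, the median of the members was -0.31 to -0.24. The numbers of members and of surrounding genes called changed, as did the number of all genes called. The summed log2 ratio was -0.35 to -0.27. Of the 9 ratios, 6 to 8 did not overlap with 1 library left out, and 4 did not with all libraries. A lone library overlaps the other group only when it lies between that group's libraries, so separation is easier to reach. The counts with and without all libraries can therefore not be compared, and no conclusion is drawn from the larger ones. In the fits, the lone library of a group is assumed to vary like the other group. Of the 36 ratio values, 7 had the other sign, in pairs that overlapped.

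The replicate numbers share only a number: the correlation of same-numbered deviations was -0.24. With the replicate block 3 members fell (*Dld*, *Sdhc* and *Idh1*) and 1 rose, 5 surrounding genes fell and 1 rose, and 1444 and 1768 of all genes were called. The crossed pairing, added after seeing the data, gave 10 members that fell and 1 that rose, 10 surrounding genes that fell and 8 that rose, and 3037 and 3118 of all genes.

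With 2 libraries a group and a common dispersion of 0.0357, genes that did not pass are not shown to be unchanged. The causes of these changes were not tested. Fits with 3 libraries also have fewer degrees of freedom, and the part of this was not tested.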
